A study of Homo sapiens with 8 samples.

Results

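Cells of the human embryonic stem cell line H1 that had been driven towards ectoderm were compared with undifferentiated cells of the same line (hPSC), gene by gene and transcript by transcript. Both were measured by long-read sequencing of polyadenylated RNA on a PacBio Sequel II. The comparison takes the 2 ectoderm and the 2 hPSC libraries out of 8, and of the 20195 named genes counted, 19445 had a read in either group and 10563 had enough reads to be tested. Undifferentiated cells grew in mTeSR1 on Matrigel. Ectoderm cells were kept in DMEM/F12 with 15% KnockOut serum replacement and 2 µM each of A83-01, PNU-74654 and Dorsomorphin, and were collected after 5 days. The other 4 libraries, 2 each of endoderm and mesoderm from the same line, entered the fit and serve for contrast. All groups derive from a single cell line, and the labels do not say that repeats were separate cultures, so p-values measure only the spread between these samples. In bulk RNA, fewer cells of a type and less RNA per cell cannot be told apart.

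The neural plate is the sheet of ectoderm that gives rise to the brain and spinal cord. Its anterior part makes RAX, SIX3, PAX6 and HESX1, which later pattern forebrain and eye. Pluripotent cells leave their state towards this fate when NODAL/activin and BMP signals, which favour mesoderm, endoderm and epidermis, are blocked. A83-01 inhibits the activin and NODAL receptors, Dorsomorphin inhibits BMP receptors, and PNU-74654 interferes with the binding of beta-catenin to TCF factors, the last step of canonical WNT signalling.

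The libraries held 519306 and 562042 reads for hPSC and 1180888 and 967206 for ectoderm, so levels are given as CPM, reads of a gene per 1000000 reads of the library. A count of 0 allows up to 3 reads, which is 5.78 and 5.34 CPM in hPSC and 2.54 and 3.10 CPM in ectoderm, for counting error only. The hPSC repeats were less alike than any other pair (r = 0.87 over log2 CPM of genes, against 0.966, 0.946 and 0.945 for ectoderm, endoderm and mesoderm, with genes not independent), so each gene list was also counted without either of them. The gap between them was uneven over GC content, without a steady trend along it. It was measured by the median deviation of log2(CPM + 5), without TMM scaling, from the mean of all 8 libraries. In the quintile of genes richest in G and C this was 0.36 in hPSC repeat 1 and -0.26 in repeat 2. In the middle quintile it was 0.04 and -0.05, and in the poorest -0.25 and -0.61. The part of this gap in the results was not tested. Reads came from transcripts of 3298 and 3114 nt on average in the hPSC repeats and of 4406 and 4650 nt in the ectoderm repeats. The log2 changes are fitted by edgeR after TMM scaling, whose factors were 1.07 and 0.842 for hPSC and 1.28 and 1.29 for ectoderm, so a fitted change lies below the ratio of the CPM values.

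Of the 10563 genes, 2512 (23.8%) rose and 2593 (24.5%) fell, together 48.3%, at an adjusted p of 0.05 in edgeR's quasi-likelihood test with Benjamini-Hochberg adjustment. The direction followed transcript length. In the quintile of genes with the shortest transcripts, 208 to 2179 nt, 3.12% rose and 59.3% fell, and the median log2 change was -1.25. In the quintile with the longest, from 6035 nt up, 48.3% rose and 4.97% fell, and the median was 1.06. Base composition moved with it, since among the genes poorest in G and C 61.5% rose and 2.86% fell. The part of length and composition in single results was not tested. Each list was therefore also fitted after a smooth length trend was removed from every library, where 16.1% of genes rose and 19.8% fell. It was fitted again after a joint trend in length and GC content was removed, where 9.19% rose and 15.1% fell. A further check used only transcripts of 1000 to 3000 nt, where 16.2% of 4378 genes rose and 16.7% fell. These 3 checks are called below the length correction, the joint correction and the 1000 to 3000 nt window. The median log2 change over all tested genes was -0.01 and became -0.11, -0.08 and -0.04 in the 3 checks. It became 0.14 without hPSC repeat 1, and list counts from that fit are to be read against this shift. That fit called 24.7% of genes higher and 25.5% lower (50.2% in all), and the fit without repeat 2 20.6% and 22.5% (43.1%). DESeq2, used as a second tool, called 13.9% higher and 16.9% lower (30.8%). Against endoderm 33% of genes were higher and 29.9% lower in ectoderm, and against mesoderm 18.3% and 17.4%.

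**Figure D1:**
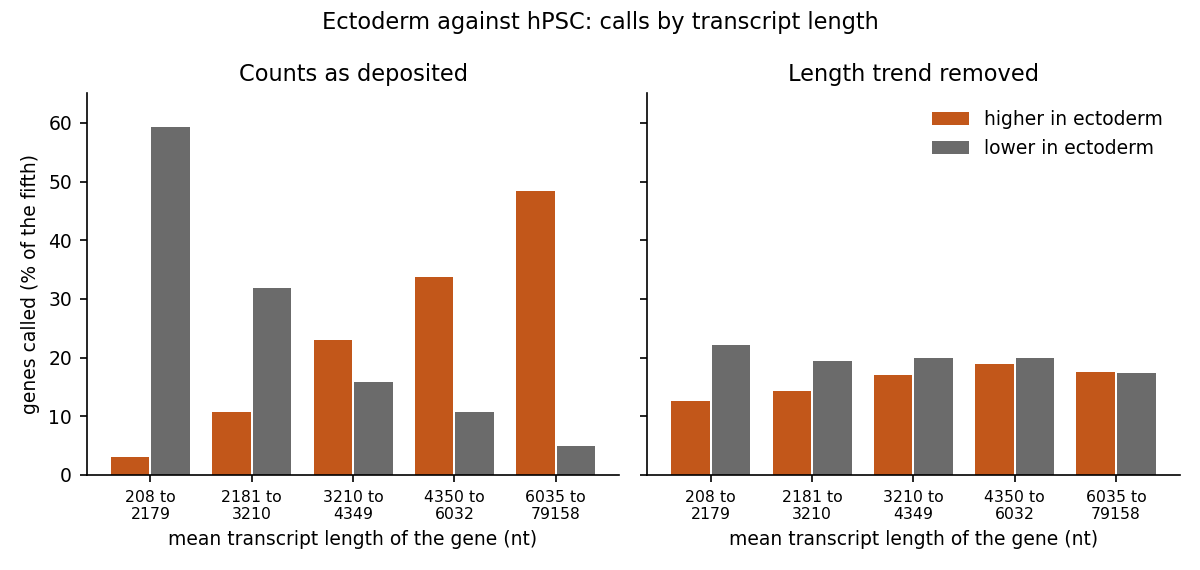
Percentage of genes called higher or lower in ectoderm than in hPSC, drawn as bars side by side. The 10563 tested genes are in quintiles by mean transcript length in nt, before and after removal of the length trend. The shortest quintile goes from 3.12% higher and 59.3% lower to 12.6% and 22.2%, and the longest from 48.3% and 4.97% to 17.6% and 17.4%.

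Transcription factors of the anterior neural plate rose from no or few reads. The list, which also holds the markers DLK1 and LIX1, had 35 of 53 members with enough reads. Of these 22 rose and 3 fell, against 23.8% and 24.5% of all genes. The list was chosen with earlier results of these data known, so its count is a description and not a test. In 11 of the 35 a group had no read, and a gene without hPSC reads passes the filter only through other groups. Its median log2 change was 3.25, or 2.48 when genes without a read in a group are set at the bound their depth allows. After the length correction 20 rose and 5 fell, and after the joint correction 21 rose and 3 fell. Without hPSC repeat 1 the counts were 24 and 3, and without repeat 2 they were 21 and 5. In 18 of the 22, ectoderm was also above both endoderm and mesoderm. That held for 44.1% of the genes that rose and 10.5% of all genes.

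The 5 markers had no read in either hPSC library. LIX1 reached 305 and 295 CPM in ectoderm, at least 51.9-fold higher (log2 change 10.42 ± 0.74 SE, edgeR adjusted p = 3.96e-07). DLK1, an imprinted NOTCH-like ligand, reached 396 and 323 CPM (at least 62.2-fold higher), and LHX5, a LIM homeobox factor of the forebrain, 199 and 161 CPM (at least 31.2-fold). PAX6 reached 144 and 81.7 CPM (at least 19.5-fold) and SIX3 113 and 91 CPM (at least 17.6-fold). The groups thus stood apart in all 5. RAX, a homeobox factor needed for eye formation, had no read in hPSC and 176 and 133 CPM in ectoderm, at least 26.8-fold higher (log2 change 9.47 ± 0.88, edgeR adjusted p = 8.64e-06). FEZF1, a zinc finger repressor of the forebrain, had 7.7 and 0 CPM in hPSC and 754 and 703 CPM in ectoderm (log2 change 7.16 ± 0.56, edgeR adjusted p = 7.78e-07), and its groups did not overlap. HESX1, an early forebrain and pituitary factor, had 7.7 and 3.56 CPM against 218 and 163 CPM (4.66 ± 0.47, edgeR adjusted p = 8.18e-06). SIX6, another eye field factor, had 25 and 19 reads in ectoderm and none in hPSC. MEIS2, with 64 and 73 reads in ectoderm, and ZEB2, with 40 and 45, also had none in hPSC. MEIS2 is a homeobox cofactor, and ZEB2 a repressor that binds SMAD proteins. SP8, a factor of the anterior neural ridge, had 1 and 0 reads against 31 and 58, and lost its call with DESeq2 (adjusted p = 0.124). TCF12, an E protein that pairs with proneural factors, stood at 40.4 and 26.7 CPM in hPSC and 308 and 377 CPM in ectoderm (2.95 ± 0.33, edgeR adjusted p = 1.35e-05). The genes shared with the stem cell state behaved otherwise. OTX2 had 77 and 139 CPM in hPSC and 153 and 134 CPM in ectoderm and was not called (-0.04 ± 0.37, edgeR adjusted p = 0.937). SOX2 had 137 and 8.9 CPM in hPSC and 152 and 133 CPM in ectoderm, so that 1 hPSC library stood near the ectoderm level and the other far below. It was not called with both (0.67 ± 0.57, edgeR adjusted p = 0.353) and was called higher without hPSC repeat 1 (adjusted p = 2.84e-08).

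Among the list members that fell, counts were low in SALL3 and BCL11A. SALL3 had 13 and 10 reads in hPSC and 14 and 4 in ectoderm, and its call was lost without hPSC repeat 1 (adjusted p = 0.0752), without ectoderm repeat 2 (0.221) and with DESeq2 (0.209). BCL11A had 10 and 6 reads against 3 and 4, with an adjusted p of 0.0516 without ectoderm repeat 1.

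Among 33 pluripotency regulators 29 were tested, 18 fell and 3 rose, and after the joint correction 20 fell and 2 rose. The median log2 change was -1.94, or -1.43 with bounds. Their summed level went from 8213 and 7699 CPM in hPSC to 4096 and 4599 CPM in ectoderm. Among those that fell were genes outside the core factors. FOXH1, the DNA-binding partner of SMAD proteins downstream of NODAL, went from 106 and 83.6 CPM to 4.23 and 5.17 CPM (-4.68 ± 0.42, edgeR adjusted p = 1.64e-06). VRTN, a DNA-binding protein, went from 553 and 423 CPM to 72.8 and 79.6 CPM (-3.08 ± 0.33, edgeR adjusted p = 7.74e-06). DPPA4 went from 832 and 868 CPM to 231 and 277 CPM (-2.17 ± 0.30, edgeR adjusted p = 5.62e-05). In all 3 the groups stood apart. LIN28B, which blocks maturation of let-7 microRNA, went the other way, from 32.7 and 32 CPM to 198 and 243 CPM (2.35 ± 0.32, edgeR adjusted p = 5.24e-05). Its paralog LIN28A had 811 and 612 CPM in hPSC and 879 and 1280 CPM in ectoderm and was not called (0.20 ± 0.29, edgeR adjusted p = 0.598). Without hPSC repeat 1, 20 fell and 5 rose. In 1 of the 18 that fell, ectoderm was also below endoderm and mesoderm, as were 24.7% of the genes that fell and 6.07% of all genes.

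**Figure D2:**
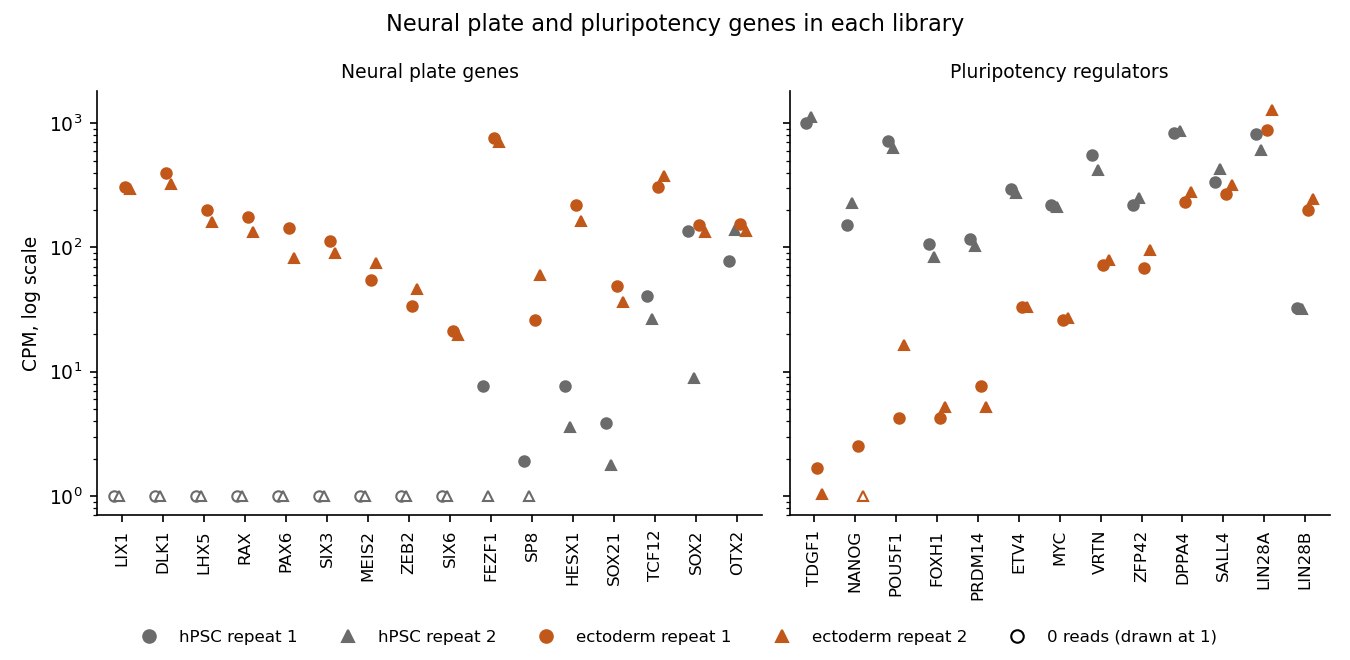
CPM on a log axis for regulators in each hPSC and ectoderm library, with libraries without a read drawn at the bottom edge. RAX goes from 0 to 176 and 133 CPM and FEZF1 from 7.7 and 0 to 754 and 703 CPM, while the OTX2 libraries overlap between the groups.

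Most defining markers of other fates had no or few reads in both groups. The endoderm genes SOX17, GATA4, FOXA2 and CER1, the mesoderm genes TBXT and HAND1, the epidermal factor TP63, the neuronal gene ELAVL3 and the trophoblast gene CGA had no read in any of the 4 libraries. All 5 defining markers of the labelled ectoderm, given above, were present in both ectoderm libraries. LIX1 was not confined to them, with 71 and 81 reads in the mesoderm libraries. Its log2 change of ectoderm against mesoderm was 0.84 (edgeR adjusted p = 0.033). DLK1 had 1 and 1 reads in mesoderm, and LHX5 had no read there. Of the 5 defining neural crest markers, in ectoderm PAX3 had 3 and 7 reads, SOX10 3 and 3, SNAI2 3 and 0, TFAP2A 1 and 0, and FOXD3 none. In the wider list of neural crest and placode markers 3 of 9 tested genes rose and 1 fell, and its summed level was 73.2 and 30.2 CPM in hPSC and 158 and 139 CPM in ectoderm. SOX9, which the neural tube also expresses, rose from 3 and 0 reads to 57 and 36 (edgeR adjusted p = 0.000706). TFAP2C rose from 12 and 1 to 72 and 48 (0.0127) and was not called without hPSC repeat 2 (0.0572) or ectoderm repeat 1 (0.0628). The wider endoderm and mesoderm list summed to 125 and 92.5 CPM in hPSC and 16.9 and 9.31 CPM in ectoderm. Most of its hPSC level was KDR, a VEGF receptor, which fell from 110 and 78.3 CPM to 1.69 and 3.1 CPM (-5.60 ± 0.44, edgeR adjusted p = 4.93e-07). The part of such cells in other results was not tested. GRHL3, a factor of surface ectoderm and neural tube closure, was the exception among the epithelial markers. It had no read in hPSC and 68.6 and 44.5 CPM in ectoderm, at least 9.78-fold higher (8.03 ± 1.19, edgeR adjusted p = 0.00013). KRT5, KRT14 and NEUROD1 were not analysed here. The neuron list summed to 408 and 498 CPM in hPSC and 419 and 384 CPM in ectoderm, with 2 of 6 tested genes higher and 3 lower. In it MAP2 rose from 1 and 2 reads to 213 and 172, and SYT1, a synaptic vesicle calcium sensor, from 7 and 8 to 161 and 118. TUBB3, GAP43 and NEFL fell, and DCX had 1 and 0 reads in ectoderm. NEFL, a neurofilament subunit, went from 73.2 and 76.5 CPM to 17.8 and 12.4 CPM (-2.70 ± 0.39, edgeR adjusted p = 8.07e-05).

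The 3 blocked pathways were followed from ligand to target. NODAL had 3 and 15 reads in hPSC and none in ectoderm, and its antagonist LEFTY2 had 2 and 2 against none. GDF3, another ligand of this branch, had 5 and 4 against none. TGIF1, a repressor of SMAD target genes, fell from 273 and 342 CPM to 94 and 66.2 CPM (-2.37 ± 0.33, edgeR adjusted p = 6.89e-05), with no call in the 1000 to 3000 nt window (0.0837). TGFBR1, the kinase receptor for TGF-beta, rose from 23.1 and 5.34 CPM to 224 and 284 CPM (3.78 ± 0.43, edgeR adjusted p = 1.3e-05). Over 23 tested members of the NODAL list 6 rose and 7 fell, and after the joint correction 1 rose and 8 fell, so here the balance of directions depended on the correction. In the BMP list 6 of 23 rose and 2 fell, and after the joint correction 3 rose and 1 fell. Among genes of similar length 23.6% rose and 27% fell for the NODAL list, and 24.7% and 26.1% for the BMP list. DESeq2 called 3 higher in each of these lists. ID3, a direct BMP target that holds back helix-loop-helix factors, had 325 and 372 CPM in hPSC and 234 and 233 CPM in ectoderm (-1.01 ± 0.29, edgeR adjusted p = 0.0099). Its change turned to 0.27 after the length correction and 0.47 after the joint one, with adjusted p of 0.476 and 0.227, and it was not called without ectoderm repeat 1 (0.0754) or 2 (0.0839). ID4 rose from 4 and 0 reads to 184 and 127 and was called in both corrections. ID1 had 25 and 12.5 CPM in hPSC and 15.2 and 21.7 CPM in ectoderm, and its groups overlapped.

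In the WNT list 12 of 38 rose and 3 fell (31.6% and 7.89%), against 25.4% and 21.9% of genes of similar length. After the joint correction 8 of the list rose and 2 fell. Of 12 tested receptors and co-receptors on it, a part counted after its values were seen, 8 rose and none fell. After the joint correction 5 rose and none fell, against 9.19% and 15.1% of all genes. FZD5, a Frizzled receptor of the eye field, rose from 5.78 and 10.7 CPM to 357 and 375 CPM (5.01 ± 0.62, edgeR adjusted p = 2.66e-05). FRZB, a secreted WNT antagonist, rose from 17.3 and 5.34 CPM to 530 and 327 CPM (4.85 ± 0.47, edgeR adjusted p = 3.13e-06). SHISA2, which retains Frizzled and FGF receptors in the endoplasmic reticulum, rose from 25 and 1.78 CPM to 397 and 496 CPM (4.70 ± 0.57, edgeR adjusted p = 2.21e-05). LEF1, itself a TCF family factor, went from no read to 27 and 24 reads. AXIN2, a feedback target of beta-catenin, had 9.63 and 10.7 CPM in hPSC and 8.47 and 5.17 CPM in ectoderm and was not called (edgeR adjusted p = 0.206). SFRP2, another secreted antagonist, went from 610 and 297 CPM to 256 and 186 CPM, and its call was lost after the length correction (adjusted p = 0.123), after the joint one (0.218) and without ectoderm repeat 2 (0.0607).

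Several FGF feedback genes fell, while of 4 FGF receptors 2 rose and 1 fell. ETV4, a transcription factor induced by FGF, went from 295 and 272 CPM to 33 and 33.1 CPM (-3.51 ± 0.34, edgeR adjusted p = 2.92e-06). SPRY4, a Sprouty inhibitor of the same pathway, went from 121 and 157 CPM to 22.9 and 26.9 CPM (-2.91 ± 0.37, edgeR adjusted p = 3.04e-05). DUSP6 and ETV5 also fell, and DUSP6 lost its call without hPSC repeat 2 (adjusted p = 0.215) and with DESeq2 (0.0638). The list had 5 of 22 higher and 9 lower, 2 and 7 after the joint correction, and 5 lower with DESeq2. Among genes of similar length 26.3% rose and 19.9% fell, against 22.7% and 40.9% of this list. FGFR4 fell from 210 and 185 CPM to 88.1 and 91 CPM (-1.55 ± 0.33, edgeR adjusted p = 0.00155). FGFR3 rose from 2 and 0 reads to 34 and 18. FGFR1 had 464 and 384 CPM against 711 and 1220 CPM (edgeR adjusted p = 0.0491), with no call after the length correction (adjusted p = 0.699) or with DESeq2 (0.0535). In the NOTCH list 7 of 17 rose and 2 fell (41.2% and 11.8%), against 29.2% and 18.4% of genes of similar length. After either correction 4 of the list rose and 2 fell. DLL1, a NOTCH ligand, rose from 9.63 and 1.78 CPM to 59.3 and 53.8 CPM (2.91 ± 0.52, edgeR adjusted p = 0.0004), and the target HES1 rose from 25 and 5.34 CPM to 74.5 and 50.7 CPM (1.68 ± 0.47, edgeR adjusted p = 0.00855). HEY2, a related target, fell from 14 and 9 reads to 2 and 1. Of 25 tested genes of Hedgehog signalling and the primary cilium, the organelle where that signal is read, 13 rose and none fell, with a median of 1.26. After the length correction 8 rose, and after the joint one 5, again with none lower. DESeq2 called 6 of them higher. Before correction 52% of this list rose, against 32.9% higher and 11.8% lower among genes of similar length. BOC, a Hedgehog co-receptor, rose from 6 and 1 reads, 11.6 and 1.78 CPM, to 72 and 67.2 CPM (2.99 ± 0.52, edgeR adjusted p = 0.000352). SUFU, which holds GLI factors back, rose from 63.5 and 35.6 CPM to 202 and 255 CPM (1.82 ± 0.34, edgeR adjusted p = 0.000537). PTCH1, the receptor that Hedgehog signalling itself induces, had 11.6 and 5.34 CPM against 22 and 32.1 CPM and was not called (edgeR adjusted p = 0.0614). CEP290, a protein of the ciliary transition zone, lost its call after the joint correction (adjusted p = 0.389).

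The RNAs of many adhesion molecules differed between the groups. Protocadherins, which mediate selective contact between neural cells, rose in 11 of 14 tested members, with a median of 2.16, or 2.06 with bounds. The count was 10 after the length correction, 9 after the joint one and 7 with DESeq2, and 7 were also above endoderm and mesoderm. PCDH18 rose from 34.7 and 55.2 CPM to 628 and 801 CPM (3.54 ± 0.38, edgeR adjusted p = 8.18e-06). The other risers were PCDH11X and 9 genes of the beta cluster on chromosome 5, which resemble one another closely. How reads shared by such copies were counted is not given in the sources used here. PCDHB10 had 1 and 0 reads against 52 and 36, and PCDHB5, at the lower end, 42.4 and 37.4 CPM against 166 and 134 CPM (edgeR adjusted p = 0.00133). PCDHGC3 fell in the fit with all libraries, but its call was lost without hPSC repeat 2 (adjusted p = 0.166), without ectoderm repeat 1 (0.205) or 2 (0.134), and with DESeq2 (0.186). PCDH10 had 7 and 0 reads in hPSC and none in ectoderm, so its call rests on hPSC repeat 1 (adjusted p = 1 without it). PCDH11X was not called after the length correction (adjusted p = 0.0864).

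Classical cadherins and junction proteins went in both directions, 19 of 39 higher and 6 lower, and 11 and 4 after the joint correction. CDH6, a cadherin of the neural folds, had no read in hPSC and 56.7 and 52.7 CPM in ectoderm, at least 9.47-fold higher (7.97 ± 1.04, edgeR adjusted p = 9.12e-05). CDH2, the neural cadherin, rose from 25 and 23.1 CPM to 105 and 115 CPM (1.77 ± 0.35, edgeR adjusted p = 0.000829). CDH1, the epithelial cadherin, had 693 and 509 CPM against 824 and 913 CPM and was not called (0.13 ± 0.29, edgeR adjusted p = 0.726). DSP, which links desmosomes to keratin, rose from 53.9 and 28.5 CPM to 352 and 392 CPM (2.79 ± 0.34, edgeR adjusted p = 2.21e-05). CLDN6, a claudin of the tight junction strand, fell from 697 and 1071 CPM to 129 and 134 CPM (-3.20 ± 0.38, edgeR adjusted p = 2.04e-05). The fall of ESRP2, an epithelial splicing regulator, was not called without hPSC repeat 1 (adjusted p = 0.598), ectoderm repeat 1 (0.0541) or ectoderm repeat 2 (0.0873), or after the joint correction (0.0692).

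More genes of axon guidance and of the basement membrane rose than fell, as did other genes with transcripts as long. Of 39 axon guidance and neural adhesion genes 19 rose and 3 fell, and 8 rose and 5 fell after the length correction, 11 and 2 after the joint one. DESeq2 called 12 higher. Among all genes of similar length 40.4% rose and 9.11% fell, against 48.7% and 7.69% of this list. EPHA4, an ephrin receptor that marks boundaries in the neural tube, had 1 and 0 reads in hPSC and 324 and 298 in ectoderm, a pooled ratio of 313 (95% counting interval 56 to 12387). L1CAM, an adhesion molecule of axons, fell from 82.8 and 21.4 CPM to 2.54 and 3.1 CPM (-4.46 ± 0.61, edgeR adjusted p = 5.69e-05). Of 38 integrin, laminin and collagen genes 20 rose and 4 fell, and the length correction left 10 and 7, the joint one 11 and 1. Among genes of similar length 36% rose and 10.9% fell. LAMB1, a laminin chain of basement membrane, rose from 25 and 33.8 CPM to 372 and 413 CPM (3.30 ± 0.36, edgeR adjusted p = 9.08e-06). The fall of COL6A1 and COL6A2 was absent without hPSC repeat 1, with log2 changes of 0.02 and 0.13 (adjusted p = 0.977 and 0.869), and neither was called after the joint correction (0.0953 and 0.0656). GPC3, a heparan sulfate proteoglycan of the cell surface, rose from 119 and 137 CPM to 1384 and 1246 CPM (2.93 ± 0.33, edgeR adjusted p = 1.42e-05). Its relative GPC4 had 512 and 133 CPM against 62.7 and 196 CPM, overlapping, and lost its call without hPSC repeat 1 (adjusted p = 0.122), without ectoderm repeat 1 (0.176) and with DESeq2 (0.127).

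Most tested genes of serine synthesis, one-carbon metabolism and amino acid import fell, 22 of 28. ATF4, the transcription factor that many of them answer to, is translated when amino acids are short or the endoplasmic reticulum is stressed, and binds CCAAT enhancer binding protein-ATF response elements with the core TGATGNAA. The stretch with this core is shown for 3 members of this list that fell. It is also shown for AARS1, an aminoacyl-tRNA synthetase gene from a list described after it. They are RefSeq promoter sequences on GRCh38.p14, read 5' to 3' on the gene's strand at chr15:40953236-40953295 (plus strand), chr7:97872443-97872502 (minus), chr6:150866331-150866390 (plus) and chr16:70289660-70289719 (minus). Capitals mark the core in either orientation.
CHAC1: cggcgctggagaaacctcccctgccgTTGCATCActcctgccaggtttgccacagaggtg
ASNS: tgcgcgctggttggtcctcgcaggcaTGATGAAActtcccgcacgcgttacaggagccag
MTHFD1L: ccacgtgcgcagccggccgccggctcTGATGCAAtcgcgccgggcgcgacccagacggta
AARS1: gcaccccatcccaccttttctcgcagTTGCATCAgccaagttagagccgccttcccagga
In windows from 250 bases before to 50 bases after the gene start, 300 bases long, TGATGNAA on either strand was found in 1270 of 35116 RefSeq promoters (3.62%) and in 133 of 8322 promoters of tested genes (1.6%). It was found in 5 of the 22 list members with a promoter sequence. Of these CHAC1, ASNS, MTHFD1L and SLC3A2 fell, and SLC38A1 rose. In all, 19 of the 22 fell, most of them without the core. The list was drawn up to hold ATF4 targets among others, so its share with the core is no separate result. A match describes the letters only. MTHFD1L, at 61.6 and 48 CPM in hPSC and 33 and 32.1 CPM in ectoderm, lost its call after the joint correction (adjusted p = 0.145) and with DESeq2 (0.174).

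Of 28 tested members of the list 22 fell and 2 rose, against 24.5% and 23.8% of all genes, with a median log2 change of -2.06. After the length correction 19 fell (median -1.70), after the joint one 18 (median -1.47), and 11 of 18 in the 1000 to 3000 nt window. Without hPSC repeat 1 19 fell, and without repeat 2 22. CHAC1, which degrades glutathione, fell most, from 127 and 254 CPM to 3.39 and 2.07 CPM (-6.46 ± 0.55, edgeR adjusted p = 1.02e-06). The mRNA of ATF4 itself fell from 61.6 and 67.6 CPM to 11 and 10.3 CPM (-2.99 ± 0.37, edgeR adjusted p = 2.63e-05). In both, each ectoderm library lay far below each hPSC library. Along the serine pathway, PHGDH, the first enzyme, went from 976 and 1541 CPM to 355 and 231 CPM (-2.56 ± 0.36, edgeR adjusted p = 7.92e-05). PSAT1, the next, went from 376 and 475 CPM to 215 and 189 CPM (-1.51 ± 0.31, edgeR adjusted p = 0.00101), and PSPH, the last, from 148 and 178 CPM to 53.3 and 47.6 CPM (-2.12 ± 0.32, edgeR adjusted p = 0.00013). The mitochondrial folate enzymes followed. SHMT2, which splits serine for one-carbon units, went from 366 and 571 CPM to 132 and 81.7 CPM (-2.58 ± 0.37, edgeR adjusted p = 7.45e-05), and MTHFD2 from 295 and 356 CPM to 96.5 and 85.8 CPM (-2.27 ± 0.35, edgeR adjusted p = 0.000137). ASNS, asparagine synthetase, went from 162 and 244 CPM to 60.1 and 39.3 CPM. SLC7A3, an importer of cationic amino acids, went from 131 and 208 CPM to 22 and 16.5 CPM (-3.56 ± 0.39, edgeR adjusted p = 9.75e-06). All of these were called in both corrections, and PSAT1 was not called in the 1000 to 3000 nt window (adjusted p = 0.0589). SLC38A1 and SLC7A11, the 2 that rose, went to -0.16 and -0.16 after the joint correction with no call, and without ectoderm repeat 2 neither was called (adjusted p = 0.0563 and 0.139). SLC7A11 was also not called without hPSC repeat 1 (adjusted p = 0.0772) or with DESeq2 (0.124). Of the 22 that fell, 5 were also below endoderm and mesoderm, near the 24.7% among all genes that fell.

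Cytoplasmic aminoacyl-tRNA synthetases, which load amino acids onto tRNA, moved the same way. Of 23 tested genes of the complex and its partners 15 fell and 1 rose (median -1.44), and 14 and 13 fell after the 2 corrections. The core TGATGNAA was found in 6 of 19 promoters. Of these genes TARS1, CARS1, MARS1 and AARS1 fell, and IARS1 and NARS1 were not called. Among the 19 genes with a promoter sequence 13 fell. AARS1 went from 689 and 934 CPM to 330 and 356 CPM (-1.69 ± 0.31, edgeR adjusted p = 0.000552), and MARS1 from 868 and 1414 CPM to 364 and 380 CPM (-2.08 ± 0.35, edgeR adjusted p = 0.000293). NARS1 had 166 and 126 CPM against 196 and 231 CPM (0.14 ± 0.28, edgeR adjusted p = 0.704). The single riser EPRS1 was not called after either correction, nor without ectoderm repeat 1 (adjusted p = 0.063) or 2 (0.0778).

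Most genes of glycolysis fell. Several of its genes carry hypoxia response elements with the core ACGTG in their promoters, and 3 members that fell are shown with the cores in the stretch in capitals. PGK1 has a further core outside the stretch shown. The RefSeq windows lie on GRCh38.p14 at chr11:18394352-18394520, chrX:78104020-78104095 and chr19:34364804-34364860, all on the plus strand.
LDHA: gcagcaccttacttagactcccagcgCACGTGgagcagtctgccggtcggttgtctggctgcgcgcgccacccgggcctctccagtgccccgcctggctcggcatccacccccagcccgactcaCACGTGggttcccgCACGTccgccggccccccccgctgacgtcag
PGK1: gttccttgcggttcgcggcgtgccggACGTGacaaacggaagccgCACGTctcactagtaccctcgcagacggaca
GPI: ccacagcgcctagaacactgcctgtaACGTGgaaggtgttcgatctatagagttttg
ACGTG on either strand was found in 21.4% of all promoters and 27.8% of those of tested genes, and in 9 of 21 glycolysis promoters, 7 of them of genes that fell and 2 of genes that were not called (HK2 and BNIP3). In all, 14 of the 21 fell.

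Of 24 tested genes of glycolysis 14 fell and none rose (median -1.39), against 33.7% lower among genes of similar length. After the length correction 13 fell and 1 rose, after the joint one 14 fell, and in the 1000 to 3000 nt window 9 of 14 fell. Their summed level was 23813 and 35051 CPM in hPSC and 13127 and 11189 CPM in ectoderm. HK1, the first step, went from 1055 and 1075 CPM to 286 and 287 CPM (-2.32 ± 0.29, edgeR adjusted p = 3.28e-05). ALDOA, an aldolase, went from 1641 and 3009 CPM to 452 and 319 CPM (-3.06 ± 0.41, edgeR adjusted p = 4.76e-05). ENO1, enolase, went from 3926 and 7556 CPM to 1876 and 1089 CPM (-2.43 ± 0.45, edgeR adjusted p = 0.00051). LDHA, which makes lactate, went from 614 and 1046 CPM to 373 and 246 CPM (-1.89 ± 0.36, edgeR adjusted p = 0.000719), and PGK1 from 701 and 1149 CPM to 395 and 282 CPM (-1.91 ± 0.36, edgeR adjusted p = 0.000594). In each of these 5 genes both ectoderm libraries lay below both hPSC libraries. The glucose transporter SLC2A3 had 1227 and 1753 CPM in hPSC and 2389 and 2645 CPM in ectoderm and was not called (0.31 ± 0.38, edgeR adjusted p = 0.524). HK2 had 52 and 71.2 CPM against 70.3 and 93.1 CPM. Of the 14, 2 were also below endoderm and mesoderm.

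**Figure D3:**
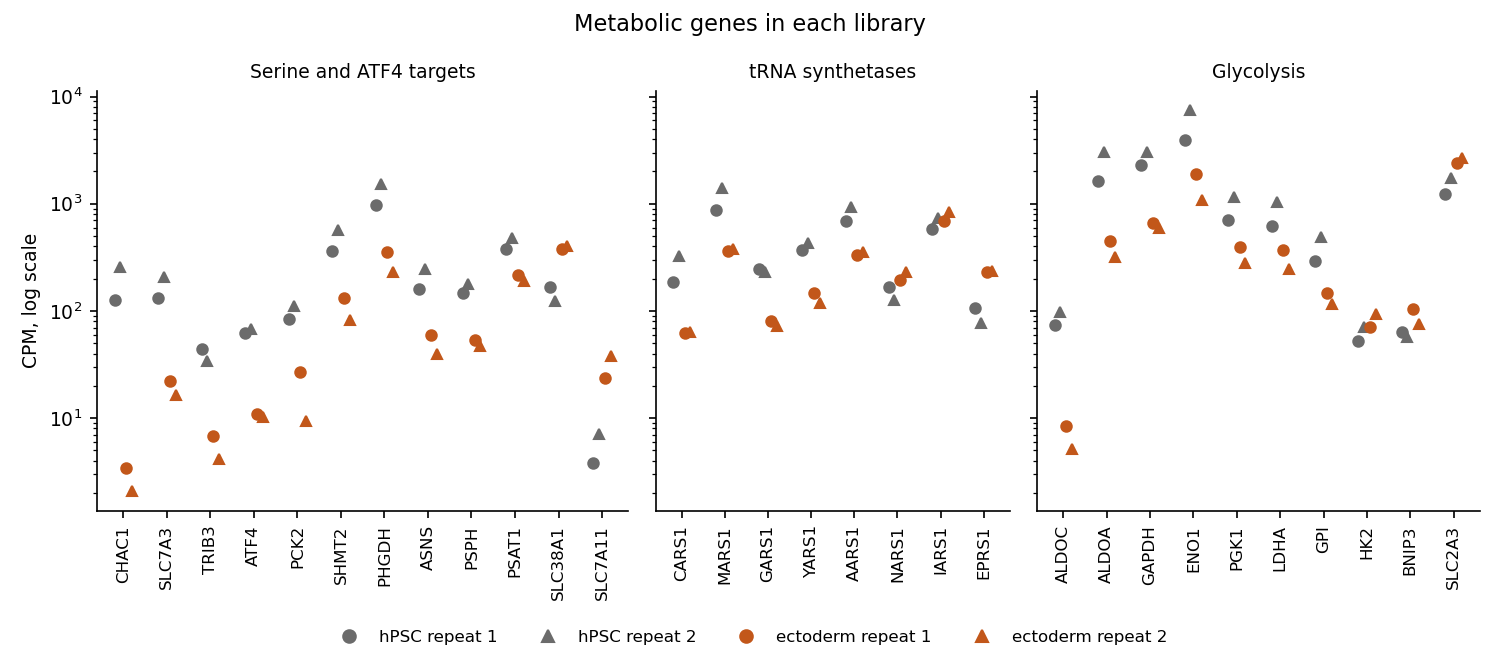
CPM on a log axis for genes of serine and amino acid metabolism, aminoacyl-tRNA synthetases and glycolysis in each hPSC and ectoderm library. CHAC1 falls from 127 and 254 to 3.39 and 2.07 CPM and ALDOA from 1641 and 3009 to 452 and 319 CPM.

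Of 34 tested genes on a list of cholesterol synthesis and uptake 16 fell and 4 rose (median -0.86), and 15 fell and 1 rose after the joint correction. FDPS, which makes farnesyl diphosphate, was among those that fell, with a log2 change of -2.31. STARD4 and SC5D rose before correction and stood at -0.13 and -0.51 after the joint one, with no call. Neither was called without ectoderm repeat 1 (adjusted p = 0.146 and 0.115) or with DESeq2 (0.17 and 0.128), and DESeq2 called 1 gene of the list higher.

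More genes of ribosome assembly fell than rose, and the counts for the ribosome itself depended on the correction. Of 33 ribosome biogenesis genes 19 fell and 2 rose (median -1.10), against 32.6% lower among genes of similar length. In this list 18 fell after the length correction and 15 after the joint one. In the 1000 to 3000 nt window 6 of 20 fell and 1 rose. NOP56, a core protein of box C/D snoRNPs, went from 173 and 224 CPM to 69.4 and 45.5 CPM (-2.22 ± 0.34, edgeR adjusted p = 0.000137). Of 39 translation factors 17 fell and 6 rose (43.6% and 15.4%), against 33.1% and 16.1% of genes of similar length. After the joint correction 15 fell and 1 rose. In the 1000 to 3000 nt window 10 of 21 fell and 3 rose (median -0.06). EEF2, the translocation factor, went from 3306 and 4726 CPM to 1360 and 1500 CPM (-1.94 ± 0.36, edgeR adjusted p = 0.00053). Of 77 cytoplasmic ribosomal protein genes, whose transcripts are short, 52 fell and 2 rose, against 54.8% lower among genes of similar length. After the length correction 9 fell and 13 rose, with a median of 0.03. Their many pseudogenes make single members uncertain.

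In other lists of short or long transcripts the counts also changed with the correction, though not alike. The 15 mitochondrially encoded genes all fell, 2 did so after the length correction and 10 after the joint one, and 9 fell without hPSC repeat 2. In the 1000 to 3000 nt window 5 of 7 fell. Nuclear genes of the respiratory chain went from 37 lower and 2 higher of 53 to 14 lower and 6 higher after the length correction. The proteasome went from 23 of 33 lower to 9, and to 6 after the joint correction. Chaperones went from 17 of 34 lower and 3 higher to 8 and 5, and to 9 and 3 after the joint correction. At the long end, chromatin modifiers went from 25 of 61 higher and 5 lower to 10 and 10, and to 7 and 4 after the joint correction. Spectrins, ankyrins and dyneins went from 13 of 28 higher and 1 lower to 7 and 7, and to 6 and 1 after the joint correction. Of 124 symbol families with at least 10 tested genes, those with at least 60% called in 1 direction were picked. Their counts are thus no test. Only the centrosomal CEP family passed by rising, in 21 of 33 members and in 12 and 7 after the 2 corrections, with none lower. Its median length was 5203 nt, in a quintile where 33.8% of genes rose. The TIMM family of mitochondrial import proteins fell in 10 of 14 members, and in 3 after either correction. Its median length was 1760 nt, in the shortest quintile, where 59.3% fell. The EEF, MRPL, MRPS, SF and HSPA families also passed, with most members lower.

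Of 12 tested tubulins, counted after their values were seen, 11 fell and none rose, against 24.5% of all genes lower. After the joint correction 6 fell, against 15.1% of all genes. TUBA4A, TUBB3 and TUBB2A, which fell, are in the quintile with the shortest transcripts, where 59.3% of genes fell. Among 32 genes of tubulins, stathmins and microtubule proteins 14 fell and 8 rose, and 9 fell and 5 rose after the joint correction. Before correction that was 43.8% and 25%, against 30.4% and 21.5% of genes of similar length. TUBA1C, an alpha tubulin, went from 318 and 448 CPM to 70.3 and 78.6 CPM (-2.81 ± 0.34, edgeR adjusted p = 2.32e-05), and TUBB2B from 535 and 544 CPM to 156 and 105 CPM (-2.46 ± 0.32, edgeR adjusted p = 3.53e-05). Tubulin genes resemble one another, so a single member is uncertain. Among those that rose was CKAP5, a polymerase of microtubule ends, from 102 and 92.5 CPM to 680 and 731 CPM (2.44 ± 0.31, edgeR adjusted p = 3.52e-05), and DPYSL5, of growth cones, from 15.4 and 10.7 CPM to 113 and 124 CPM (2.77 ± 0.42, edgeR adjusted p = 0.000152). Of 43 actins, annexins and intermediate filament genes 27 fell and 4 rose (median -1.30), against 45.5% lower among genes of similar length, and 16 fell and 5 rose after the joint correction. The number that rose was 7 without hPSC repeat 1 and 2 with DESeq2. In 22 of the 27, ectoderm was also below endoderm and mesoderm, as were 24.7% of all genes that fell. ACTB, cytoplasmic actin, went from 15675 and 23021 CPM to 5278 and 3052 CPM (-2.67 ± 0.48, edgeR adjusted p = 0.00043). KRT18, a keratin of simple epithelia, went from 589 and 632 CPM to 153 and 113 CPM (-2.62 ± 0.35, edgeR adjusted p = 5.07e-05). VIM, often used as a marker of neural progenitors, went from 65.5 and 51.6 CPM to 18.6 and 10.3 CPM (-2.38 ± 0.40, edgeR adjusted p = 0.000262).

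More mitotic genes rose than fell. Of 42 genes of the cell cycle list 17 rose and 8 fell (median 0.63). After the length correction 18 rose and 2 fell, and after the joint one 12 rose and 3 fell. In the 1000 to 3000 nt window 6 of 23 rose and 4 fell (median 0.09). In 11 of the 17, ectoderm was also above endoderm and mesoderm, as were 44.1% of all genes that rose. TOP2A, topoisomerase II alpha of dividing cells, went from 82.8 and 71.2 CPM to 1123 and 1327 CPM (3.58 ± 0.32, edgeR adjusted p = 1.32e-06). KIF11, the spindle kinesin, went from 13.5 and 7.12 CPM to 111 and 110 CPM (3.01 ± 0.41, edgeR adjusted p = 5.31e-05), and MKI67 from 23.1 and 12.5 CPM to 149 and 155 CPM (2.70 ± 0.37, edgeR adjusted p = 5.37e-05). CCND1, cyclin D1, went from 169 and 46.3 CPM to 520 and 584 CPM (2.02 ± 0.41, edgeR adjusted p = 0.00111). AURKB fell from 158 and 221 CPM to 68.6 and 58.9 CPM (-2.01 ± 0.33, edgeR adjusted p = 0.00023). CDC20 fell from 537 and 909 CPM to 351 and 222 CPM (-1.795 ± 0.378, edgeR adjusted p = 0.00133). Neither was called after the joint correction (edgeR adjusted p = 0.132 and 0.184). The fall of CCNE1, cyclin E1, was not called without hPSC repeat 1 (adjusted p = 0.912), without ectoderm repeat 2 (0.153), after the length (0.241) or joint correction (0.387), or with DESeq2 (0.132). Of 39 DNA replication genes 13 fell and 4 rose (33.3% and 10.3%), near the 29.7% and 16.9% of genes of similar length. After the length correction 6 fell and 4 rose, and after the joint one 10 fell and 1 rose. DESeq2 called 8 lower and 1 higher. MCM5, part of the replicative helicase, went from 572 and 916 CPM to 295 and 273 CPM (-1.85 ± 0.35, edgeR adjusted p = 0.000581).

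Imprinted genes and noncoding RNAs held some of the largest changes. Of 18 tested imprinted genes 8 rose and 3 fell, and 6 and 2 after the joint correction. DESeq2 called 5 higher. MEST, an imprinted hydrolase-like gene, rose from 408 and 343 CPM to 1655 and 1610 CPM (1.71 ± 0.30, edgeR adjusted p = 0.00033). PEG10, derived from a retrotransposon, rose from 34.7 and 23.1 CPM to 159 and 202 CPM (2.24 ± 0.39, edgeR adjusted p = 0.000325). SNRPN fell from 2089 and 3558 CPM to 559 and 392 CPM (-3.03 ± 0.39, edgeR adjusted p = 4.02e-05). Of 27 noncoding RNAs 8 rose and 13 fell, and 6 and 14 after the joint correction. DESeq2 called 4 higher. MALAT1, a nuclear RNA of speckles, went from 135 and 142 CPM to 2897 and 3541 CPM (4.11 ± 0.35, edgeR adjusted p = 8.69e-07). ESRG, an RNA of pluripotent cells transcribed from an endogenous retrovirus, went from 2230 and 2760 CPM to 84.7 and 95.1 CPM (-5.23 ± 0.46, edgeR adjusted p = 1.21e-06). LHX5-AS1 had no read in hPSC and 121 and 133 CPM in ectoderm, at least 22-fold higher (9.19 ± 0.87, edgeR adjusted p = 1.04e-05). Whether strand was used in counting is not given in the sources used here, so its reads and those of LHX5 may not be fully separate.

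In all, 982 genes (9.3%) were called in the same direction in the fit of all transcripts, after the length correction and in the 1000 to 3000 nt window, 349 higher and 633 lower. The 10 with the largest rise were LHX5, LINC01833, RAX, PAX6, SIX3, MEIS2, GRHL3, CDH6, FEZF1 and MAB21L2. LHX5 and MAB21L2 were not called by DESeq2 (adjusted p = 0.155 and 0.363). LINC01833, a noncoding RNA, had no read in hPSC and 202 and 144 CPM in ectoderm. The 10 with the largest fall held LINC01013, TDGF1, GLB1L3, PLA2G3 and 6 genes known by identifier alone. ENSG00000289356 was the most abundant of the 6, with 553 and 778 CPM in hPSC and 1.69 and 4.14 CPM in ectoderm (-8.23 ± 0.53, edgeR adjusted p = 1.14e-07). PLA2G3, a secreted phospholipase, had 21.2 and 33.8 CPM in hPSC and no read in ectoderm.

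**Figure D4:**
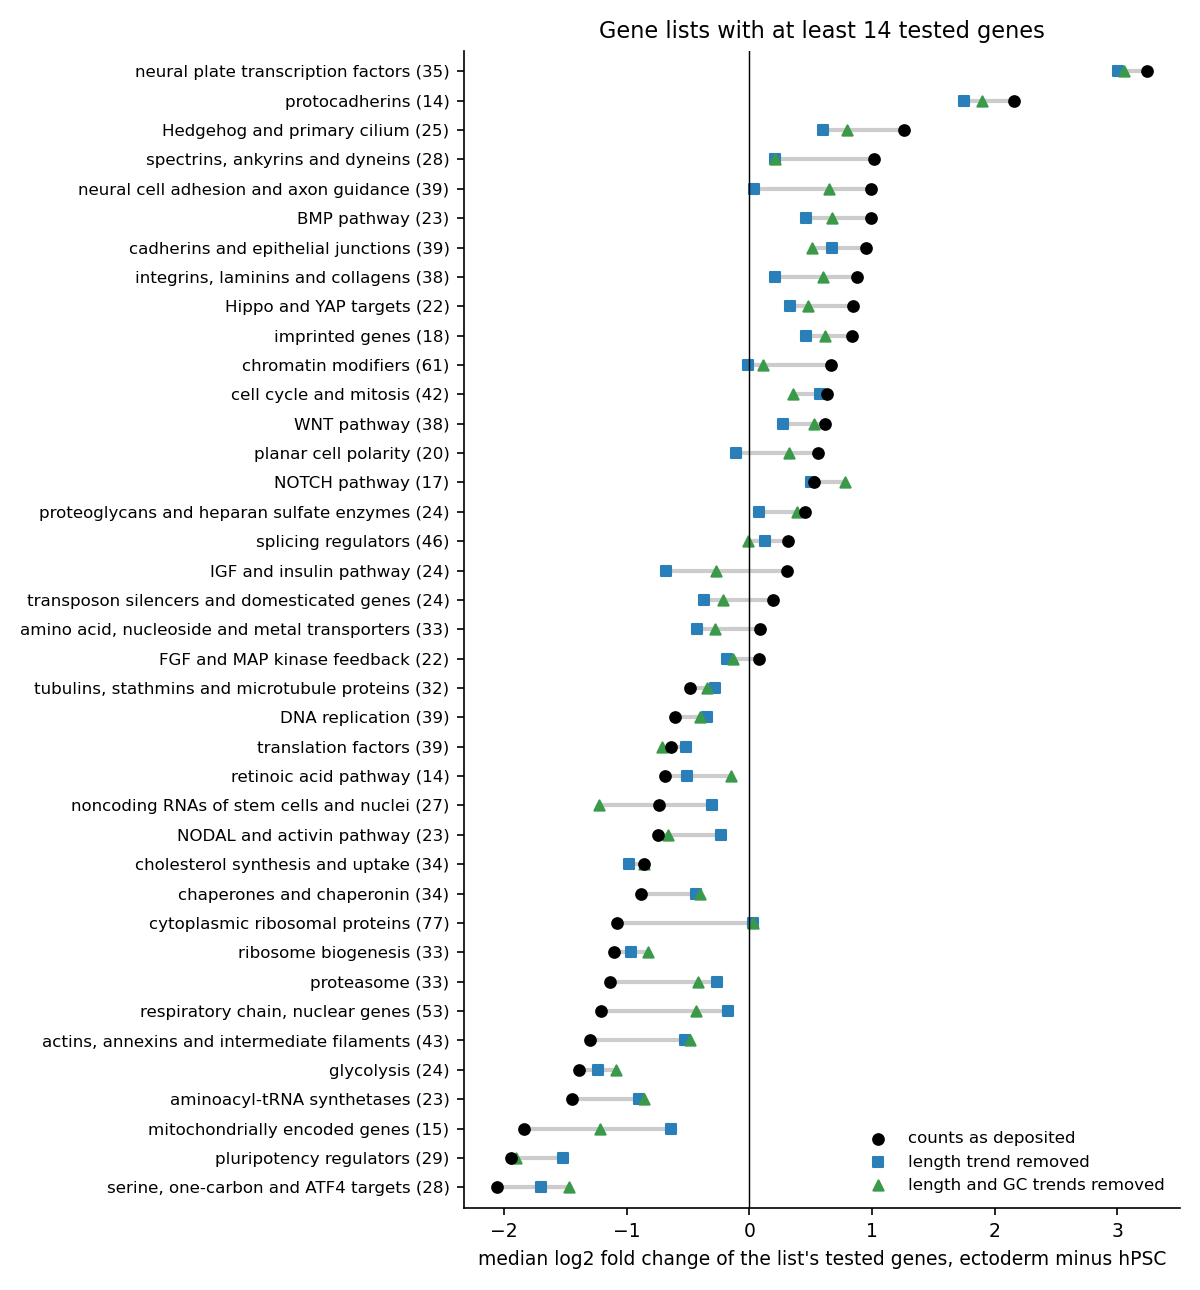
Median log2 change, ectoderm minus hPSC, of the 39 gene lists with at least 14 tested genes, before correction, after the length correction and after the joint length and GC correction. Neural plate factors stand at 3.25 and 3.01 before and after the length correction and the serine and ATF4 list at -2.06 and -1.70, while ribosomal proteins move from -1.08 to 0.03.

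Of 12440 single transcripts tested, 2956 (23.8%) rose and 2749 (22.1%) fell, together 45.9%. Transcripts of a gene were then compared as shares of its reads. Of 2638 genes with at least 2 tested transcripts, 157 (5.95%) changed their shares in edgeR's test of differential transcript use (Benjamini-Hochberg over genes). The transcript that gained was the longer one in 122 of the 157 (77.7%). It was also the longer one in 1559 of the 2615 tested genes with reads in both groups (59.6%), which is a description of both sets. Of the 88 genes on a list of known switches 54 were tested and 10 were called. In 4 of them, TFPI, DNMT3B, RBFOX2 and ATP5F1C, a share moved by at least 20 points, and the gaining transcript was longer. It gained 88.9 points in TFPI, but 13.2, 8.59 and 14.5 points in DNMT3B, RBFOX2 and ATP5F1C. The gaining DNMT3B transcript, of 13753 nt, had 3 exons, and the losing RBFOX2 transcript had 1 exon. Whether these moves are the known switches was not tested. In DNMT3B, a DNA methyltransferase, the full-length ENST00000328111 held 62.5% and 37.1% of reads in hPSC and 17% and 21.2% in ectoderm (edgeR adjusted p = 0.000344). In ATP5F1C, a subunit of ATP synthase, ENST00000356708 went from 83.9% and 86.4% to 46.3% and 50.6% (edgeR adjusted p = 0.00429). In 10 called genes the rising and the falling transcript each moved by at least 30 points and differed in length by less than 20%. There the gaining one was longer in 5.

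Pairs of similar length that start at different promoters or exons are shown with the coding bases that only one of them carries. UGP2 makes UDP-glucose, the donor for glycogen and glycans. Its ENST00000394417 rose from 33.5% and 38.8% of reads in hPSC to 82.9% and 76.9% in ectoderm, and ENST00000337130 fell from 63.2% and 57.9% to 13.2% and 18.1% (edgeR adjusted p = 0.000347). In endoderm and mesoderm the former held 73.3% and 56.8%. The falling transcript codes for 508 residues and the rising one for 497, and the difference is the start, at chr2:63842186-63842204 and chr2:63856306-63856319 on the plus strand of GRCh38. MAT2B is the regulatory subunit of methionine adenosyltransferase. Its ENST00000321757 (334 residues) rose from 52.4% and 33.3% to 71.5% and 74.7%, and ENST00000280969 (323 residues) fell from 38.1% and 63.9% to 9.72% and 6.9% (edgeR adjusted p = 0.00117). Their own starts lie at chr5:163505687-163505749 and chr5:163503395-163503424, plus strand. The bases are from GENCODE 29, and the start codon is in capitals.
UGP2 ENST00000337130: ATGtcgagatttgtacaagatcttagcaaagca
MAT2B ENST00000321757: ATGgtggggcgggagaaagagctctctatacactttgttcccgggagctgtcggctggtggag
MAT2B ENST00000280969: ATGcctgaaatgccagaggacatggagcag
In both genes every ectoderm library lay outside the range of the hPSC libraries for both transcripts. MEST shifted from ENST00000341441, at 57.5% and 80.8% in hPSC and 27.4% and 26.4% in ectoderm, to ENST00000223215, at 26.9% and 3.63% against 68% and 69.8% (edgeR adjusted p = 0.000101). DUT, which removes dUTP, shifted from the short ENST00000455976 (164 residues), at 62.9% and 78.1% against 26% and 22.9%, to ENST00000331200 (252 residues), at 37.1% and 9.38% against 66% and 71.4% (edgeR adjusted p = 0.0294). In ARGLU1, which binds splicing factors, ENST00000472226 rose from 60.6% and 51.4% to 88.2% and 90.5% (edgeR adjusted p = 0.00429).

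Most of these calls needed both ectoderm libraries. Of the 13 genes named by rule for their shares, 12 were called without hPSC repeat 1 and 12 without repeat 2, but 2 without ectoderm repeat 1 and 4 without repeat 2. MEST was called in all 4 cases, with adjusted p from 2.17e-17 to 0.0379. UGP2 was not called without ectoderm repeat 1 (adjusted p = 0.0598), and MAT2B not without ectoderm repeat 1 (0.0598) or 2 (0.0963). DUT was not called without either ectoderm repeat (0.281 and 0.319), nor ARGLU1 (0.104 and 0.171), DNMT3B (0.0993 and 0.0697) or ATP5F1C (0.103 and 0.0556). RBFOX2 was not called without ectoderm repeat 1 (0.0514). TFPI, with 21 reads in hPSC in all, was not called without hPSC repeat 1 or 2 (0.867 and 0.915).

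**Figure D5:**
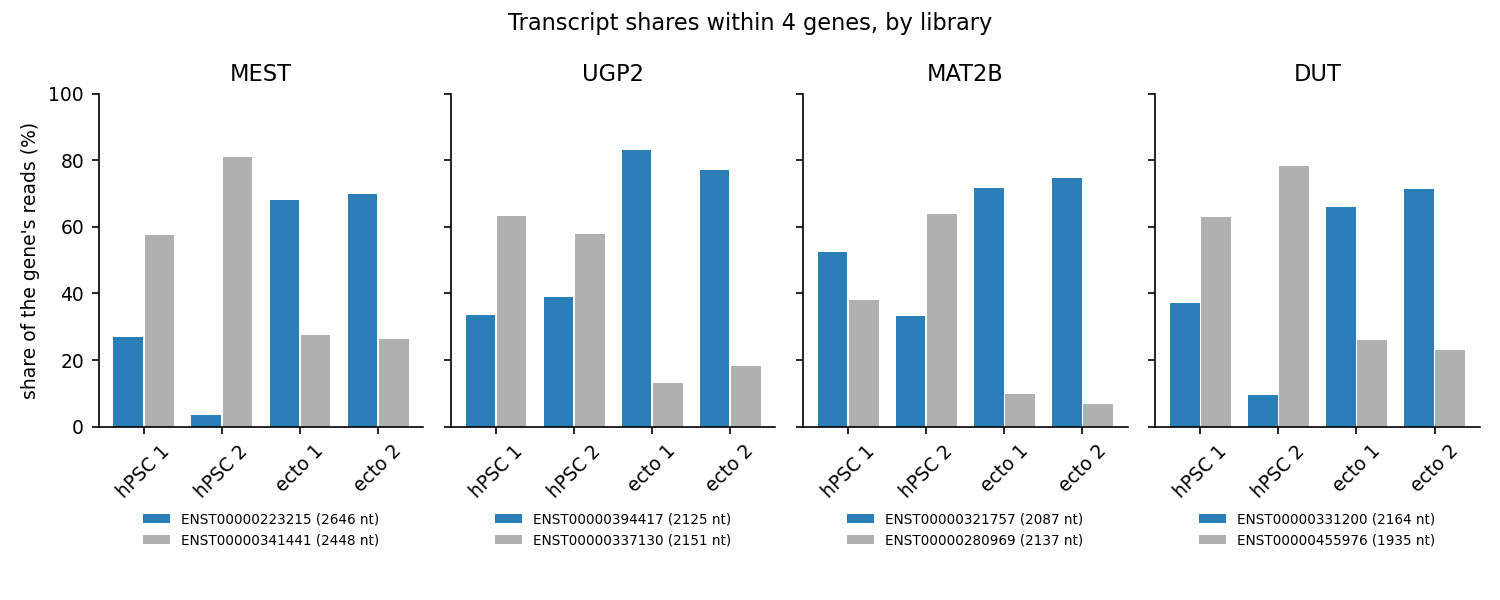
Share of a gene's reads, in percent, held by the rising and the falling transcript of genes with changed transcript use, 1 bar per library. The rising UGP2 transcript goes from 33.5% and 38.8% in hPSC to 82.9% and 76.9% in ectoderm and the rising MEST transcript from 26.9% and 3.63% to 68% and 69.8%.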

How the data were processed

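Long-read RNA was measured in 8 libraries, 2 per group, of which 4 form the comparison. The authors deposited whole raw counts per assembled transcript with no normalization; minimap2, StringTie and GRCh38 are named in the submitters' processing notes, and versions are not given in the sources used here. In the record of units the deposited endoderm columns carry the unit of expected counts because their name reads as a coordinate; they hold whole raw counts, and nothing was rounded. Counts were summed per gene over the 85024 of 96614 transcripts that carry a gene name, 95.7% to 98.3% of reads. Genes were tested with edgeR 4.0.16 (quasi-likelihood, TMM, filterByExpr with a minimum count of 10, R 4.3.3) in 1 fit of all 8 libraries by group, with Benjamini-Hochberg adjustment, and transcript shares with diffSpliceDGE. SE is the log2 change divided by the square root of F. The biological coefficient of variation was 0.212 with 4 residual degrees of freedom. Length and GC trends were fitted per library by loess (span 0.5) and entered as offsets. GC content was known for 10480 of the 10563 tested genes, and the GC corrections were added after the data were seen. DESeq2 1.42.0 and limma 3.58.1 served as alternatives, and scripts were tested on simulated data. A fold against a group without reads uses the highest floor of its libraries, and ratios over 1 to 3 reads carry exact 95% binomial intervals for counting error only. PCR copies were not separated by molecular identifiers in the files used. How reads shared by similar genes were counted is not given in the sources used here.

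The gene lists and members were chosen with earlier results of these data known. Named genes are the 5 markers, up to 3 called members of a list in each direction with at least 10 CPM in each higher-group library, the 10 largest changes each way that also passed the length checks with at least 20 CPM, and the share genes described in the text. Any other gene was chosen after its values were seen. The tubulins and the WNT and FGF receptors were counted as parts of their lists after their values were seen. Alternatives were another tool, scaling, filter, transcript set and length or GC correction, and each library left out in turn. A few genes of the lists are not reported here by name.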

Additional observations from a re-analysis of the deposited data

How the results depend on the processing

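edgeR called 5105 genes, against 3252 by DESeq2, 3402 with a minimum count of 30, 1442 from transcripts of 1000 to 3000 nt (4378 genes tested) and 2569 after the joint length and GC correction, where the split was 971 higher and 1598 lower against 2512 and 2593. Leaving out 1 library gave 3210 to 5779. Of the 5105, 3250 were called in the same direction by DESeq2, 2971 after the length correction and 2033 after the joint one, where 4 were called in the opposite direction. For single transcripts, 5705 were called, 2899 by DESeq2, 2594 with a minimum count of 30 and 1638 at 1000 to 3000 nt, and 3391 to 7314 with 1 library left out. Changed shares numbered 157, and 58 with a minimum count of 30, 79 at 1000 to 3000 nt and 91 over reference intron chains, and 12 to 304 with 1 library left out. Genes that also differed from endoderm and mesoderm numbered 1748, and 775 by DESeq2, 1062 after the length, 881 after the GC and 542 after the joint correction, 417 at 1000 to 3000 nt, and 646 to 2312 with 1 library left out. Fewer genes enter with the higher minimum count and at 1000 to 3000 nt; otherwise the cause was not tested.

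Directions turned for ID3 (0.27 after the length and 0.47 after the joint correction), POLE (-0.072, length), COL6A2 and COL6A1 (0.133 and 0.021 without hPSC replicate 1, -2.272 and -1.798 without replicate 2), STARD4 (-0.065 GC, -0.129 joint), SC5D (-0.25 GC, -0.51 joint), NOC3L (-0.17, GC), and SLC7A11 and SLC38A1 (-0.16 and -0.16, joint). Of 224 genes named by rule, 191 kept direction and call with DESeq2, 195 after the length and 166 after the joint correction.

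Repeat numbers are shared between groups, but same-numbered libraries did not deviate together throughout (r = -0.03 for hPSC and ectoderm and -0.04 to 0.15 for the other 5 pairs of groups, across genes). With the replicate block 4917 genes, 5332 transcripts, 113 share genes and 1621 genes that also differ from the other layers were called. Without a filter on low counts 3455 genes were higher and 2475 lower. Genes under the minimum count could not be tested at this depth, and 2 libraries per group leave a lone library's spread to the other groups when 1 is left out.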
